A study of Mus musculus with 32 samples.

Results

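Interscapular brown fat (BAT, called intrascapular in the labels) was compared with epididymal white fat (eWAT, a visceral depot) in obese mice that received vehicle, gene by gene, to ask how the 2 depots differ without drug. The comparison uses 8 of the 32 RNA sequencing libraries of the study, 4 from brown and 4 from epididymal fat. All are from C57Bl/6 mice that ate a diet with 60% fat for 12 weeks and then received vehicle 3 times a week for 4 weeks. The other groups referred to are brown and epididymal fat of mice given auranofin at 1 mg per kg on the same schedule (4 libraries each), and inguinal fat and liver of the vehicle mice (4 libraries each). Auranofin is a gold-containing inhibitor of thioredoxin reductase. Every group shares the high-fat diet, so no lean animal enters the comparison, and the labels do not say whether the libraries of different depots came from the same animals. Of 54532 genes in the table, the 13755 whose mean over the 8 reached 0.5 entered the test. Levels are in FPKM, fragments scaled by gene length and by a size set for each library. That size was not the count of reads in genes. It was 24013795 in epididymal library 1, with 17036845 reads in genes, and 13342846 in brown library 1, with 13845882. Differences are brown minus epididymal in log2(FPKM + 1), and the added 1 makes changes of low genes look smaller than they are. P-values are from limma, adjusted by Benjamini-Hochberg over all genes tested, and they measure the spread between 4 libraries per depot.

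Brown adipocytes hold many small lipid droplets and many mitochondria. Their uncoupling protein Ucp1 lets protons cross the inner mitochondrial membrane without making ATP, so that the energy of the respiratory chain is given off as heat. Noradrenaline from sympathetic nerves starts this through beta-adrenergic receptors, cyclic AMP and the release of fatty acids from the droplets. White adipocytes of the epididymal depot store triglyceride in 1 large droplet and secrete hormones such as leptin, and in obesity this depot is known to take up many macrophages and to gain extracellular matrix.

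The brown libraries held 13845882 to 15739660 reads in genes and the epididymal libraries 16126312 to 17068533. The first principal component, 75.4% of the variance, separated the depots. Epididymal libraries 1 and 2 stood apart from libraries 3 and 4: their mean log2 level over 20 macrophage markers was 6.21 and 5.86, against 5.17 and 5.13, and over 16 adipocyte genes 7.14 and 7.61 against 8.09 and 8.26. Brown libraries 1, 3 and 4 held skeletal muscle transcripts that brown library 2 nearly lacked. The mean log2 level over 16 muscle markers was 2.10, 0.583, 3.77 and 4.90 in brown libraries 1 to 4 and 0.867 to 0.942 in epididymal fat. Genes that muscle shares with brown fat are therefore given with their value in brown library 2. Brown library 4 and epididymal library 2 also had low levels of short transcripts, with a median deviation from their groups of -0.25 and -0.29 on the log2 scale for genes of up to 1000 bases, and a higher share of mitochondrially encoded RNA than the rest of their groups. Each depot carried markers of its labelled tissue: Ucp1 and Cidea were high in the 4 brown libraries, and leptin in the 4 epididymal ones. None of the 18 genes typical of epididymis and testis passed the filter.

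At an adjusted p under 0.05, 3091 genes were higher in brown fat (22.5% of those tested) and 3465 were lower (25.2%), 6556 in all (47.7%). With a difference of 2-fold or more as well, 1345 were higher (9.78%) and 1635 lower (11.9%). The groups did not overlap in 6573 genes (47.8%). Counts of list members below are to be read against these shares. The median log2 difference over all genes tested was -0.0041 on the authors' scale. That scale sets the bulk of genes equal between libraries. The brown libraries, whose mitochondrial and thermogenic transcripts are very abundant, sum to 440511 to 469941 FPKM and the epididymal ones to 241571 to 277439. On a scale where each library sums to the same total (TPM), the median of all genes moved by -0.72, and 1166 genes were then higher and 8330 lower, so that 12.3% of calls were higher rather than 47.1%. Differences are therefore relative to the bulk of genes. Medians of the gene lists below moved by -1.48 to 0.079 on the TPM scale. That scaling comes before 1 is added, so low genes shift by other amounts than high ones. A gene near 0 in 1 depot can pass the filter only through the other depot, which fixes its direction, so for lists with several such genes the count without them is given.

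**Figure D1:**
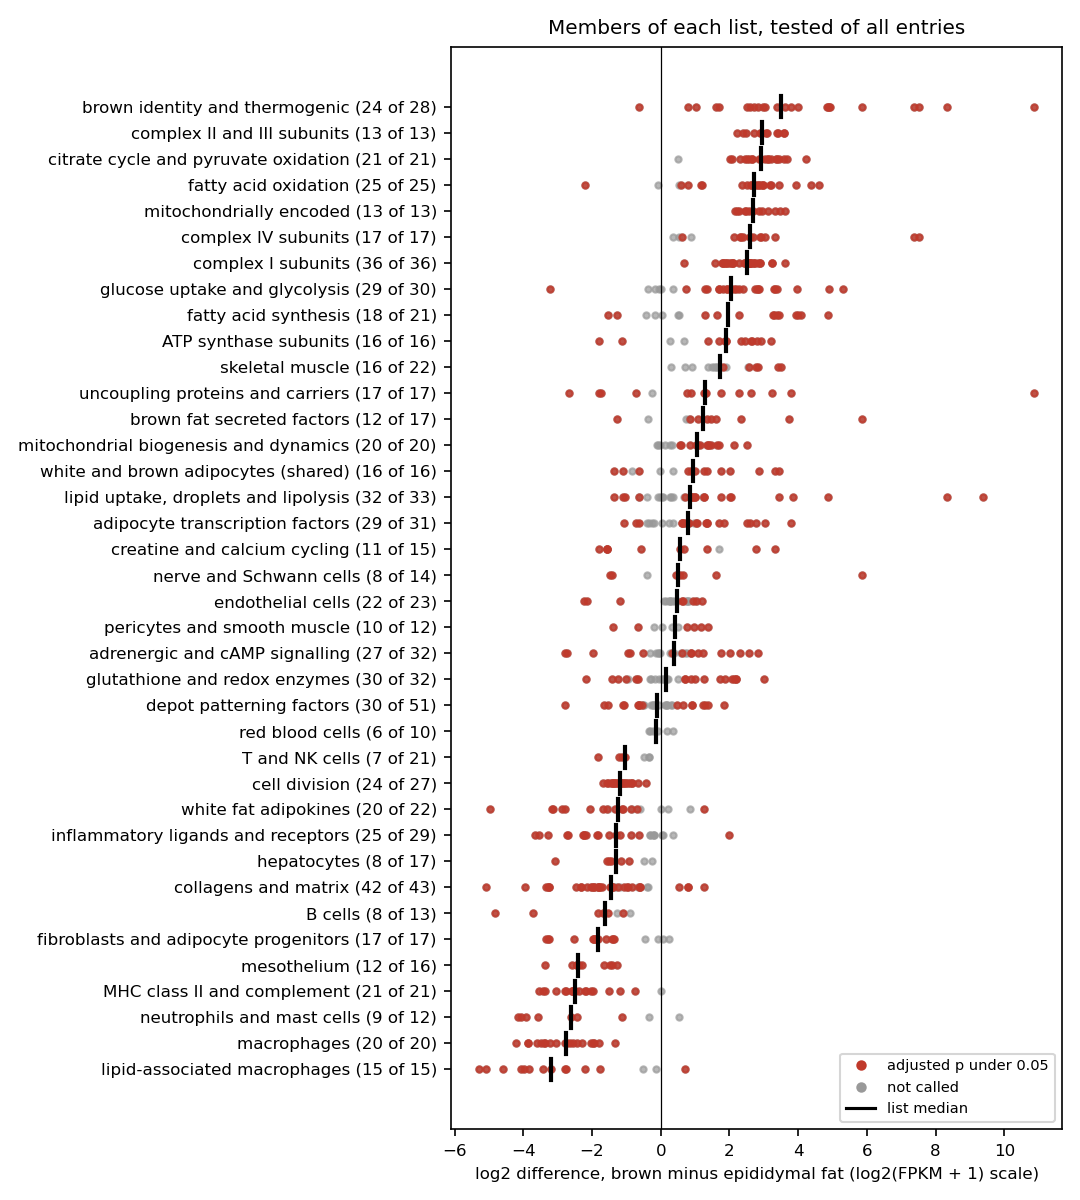
Log2 difference (brown minus epididymal fat, log2(FPKM + 1) scale, x axis) of each tested member of the gene lists (rows, with members tested of all entries), vehicle libraries, n = 4 per depot. Red points passed an adjusted p of 0.05, grey points did not, and black ticks are list medians. Medians of thermogenic and mitochondrial lists lie to the right and those of immune and matrix lists to the left of 0, and members near 0 in 1 depot were tested only through the other.

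Ucp1 (chr8:83290352-83298452 on mm10) was the gene with the largest difference towards brown fat. It had 2931, 2656, 2739.7 and 1697 FPKM in brown libraries 1 to 4 and 0.178, 0.441, 0.263 and 0.371 FPKM in epididymal libraries 1 to 4 (log2 difference 10.87, SE 0.19, adjusted p = 8.7e-09). Brown library 4 was the lowest of its group, and every brown library lay far above every epididymal one. The epididymal values rest on 7 to 15 reads per library, and inguinal fat was as low, at 0.158 ± 0.0940 FPKM (SD, n = 4). Of 28 genes of brown identity and thermogenesis, 24 were tested, 23 were higher in brown fat and 1 was lower, with a median log2 difference of 3.50. Of the 17 that reached 0.5 FPKM in both depots, 16 were higher and 1 lower. In a whole tissue, fewer cells of a type and less RNA per cell cannot be told apart, here or below. Cidea, a protein of the lipid droplet surface that marks brown adipocytes, had 1509, 1365, 1523 and 1327 FPKM in brown libraries 1 to 4 and 0.537, 3.35, 6.61 and 6.46 FPKM in epididymal libraries 1 to 4 (log2 difference 8.34, SE 0.46, adjusted p = 2.8e-06). All brown values lay within a narrow range, and epididymal library 1 was the lowest library. Dio2, the deiodinase that turns thyroxine into active thyroid hormone, had 17.0, 12.7, 16.9 and 9.81 FPKM in brown libraries 1 to 4 and 0.437, 0.810, 0.281 and 0.193 FPKM in epididymal libraries 1 to 4 (log2 difference 3.39, SE 0.20, adjusted p = 3.6e-06). The groups did not overlap. Ppargc1a, the coactivator that drives mitochondrial biogenesis, had 7.57, 6.07, 7.06 and 7.36 FPKM in brown and 0.208, 0.423, 0.300 and 0.361 FPKM in epididymal libraries (log2 difference 2.60, SE 0.11, adjusted p = 7.8e-07).

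The other members of the thermogenic list with the smallest p were Acot11, a thioesterase that cleaves fatty acyl-CoA, at 52.2 to 55.7 FPKM against 0.740 to 1.23 FPKM (log2 difference 4.84, adjusted p = 4.2e-08), and Letmd1, a mitochondrial inner membrane protein, at 126 to 152 FPKM against 7.28 to 9.61 FPKM (log2 difference 3.98, adjusted p = 3.9e-07). S100b, a calcium-binding protein that brown adipocytes make and that is also a Schwann cell marker, had 167, 181, 161 and 157 FPKM in brown libraries 1 to 4 and 0.898, 3.27, 1.71 and 2.08 FPKM in epididymal libraries 1 to 4 (log2 difference 5.87, SE 0.22, adjusted p = 6.2e-07). Prdm16, a transcription factor of brown fat, differed less. It had 3.34, 3.35, 1.59 and 1.62 FPKM in brown libraries 1 to 4 and 0.384, 1.16, 1.30 and 1.11 FPKM in epididymal libraries 1 to 4 (log2 difference 0.79, SE 0.24, adjusted p = 0.022), and brown libraries 3 and 4 lay close to the highest epididymal values. Its difference was 0.44 on the TPM scale, with an adjusted p of 0.27, and the call was lost without brown library 1, brown library 2 or epididymal library 1 (adjusted p = 0.055 to 0.065). Irf4, a partner of Ppargc1a in brown adipocytes that lymphocytes and macrophages also express, was the only tested member of the list that was lower in brown fat, at 0.626 to 0.870 FPKM against 1.47 to 2.04 FPKM (log2 difference -0.64, adjusted p = 0.0013). Kcnk3, a potassium channel, and Otop1, a proton channel, were higher in brown fat as well, by 2.71 and 3.62 on the log2 scale.

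**Figure D2:**
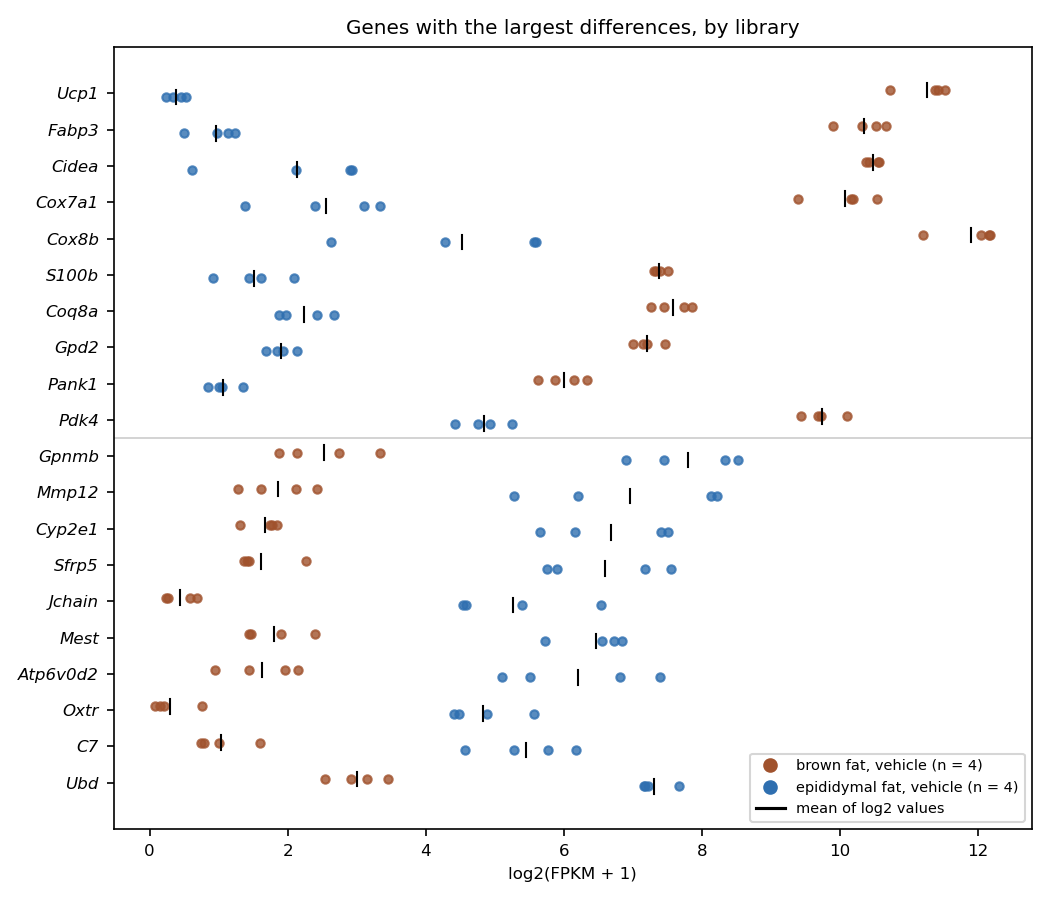
Log2(FPKM + 1) of the 10 protein-coding genes with the largest difference in each direction (x axis), by library; brown points are brown fat and blue points epididymal fat of vehicle mice (n = 4 each), and black ticks are means of the log2 values. Only called genes without overlap between the depots and with a mean of 5 FPKM or more in the higher depot were eligible. The lack of overlap was thus set by the choice. The epididymal libraries spread widely for Cox8b and Mmp12.

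The respiratory chain is built from nuclear and mitochondrial genes, and Nrf1 is a transcription factor known to bind promoters of its nuclear subunits. Sequences of the 250 bases upstream of RefSeq start sites (GRCm38.p6) were found for 67 of the 82 nuclear subunits listed. The sequence GCGCANGCG, searched on both strands, was in 16 of the 67 (23.9%) and in 5.86% of all 27025 genes with a promoter in the table. A match is a description of these letters only. Searched in the same way, TGACGTCA (the cyclic AMP response element) was in 5 of the 67 (7.46%) and 1.77% of all genes, GAGGAAGT (the motif of PU.1) in 3 (4.48%) and 2.79%, and TNAAGGTCA (the motif of the estrogen-related receptors) in 2 (2.99%) and 1.30%. Shown are Ucp1 and Cox7a1, leading genes of brown fat that hold no match to GCGCANGCG in this window, and Sdha, Cox6a1 and Atp5k, the subunits with a match that differed most between the depots. Capitals mark the match, which begins at positions -98, -55 and -10 in Sdha, -162 and -117 in Cox6a1 and -50 in Atp5k, counted from the start site, with -1 the base before it. The windows are Ucp1 at chr8:83290098-83290347 on the plus strand, Cox7a1 at chr7:30183921-30184170 on the plus strand, Sdha at chr13:74350241-74350490 on the minus strand, Cox6a1 at chr5:115348959-115349208 on the minus strand and Atp5k at chr5:108434400-108434649 on the minus strand, each printed 5′ to 3′ towards the gene.
Ucp1: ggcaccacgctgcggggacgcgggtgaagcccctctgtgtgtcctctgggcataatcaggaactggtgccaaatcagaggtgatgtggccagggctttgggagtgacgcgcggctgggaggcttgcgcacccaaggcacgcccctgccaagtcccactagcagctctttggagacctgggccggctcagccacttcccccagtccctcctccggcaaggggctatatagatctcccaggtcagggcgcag
Cox7a1: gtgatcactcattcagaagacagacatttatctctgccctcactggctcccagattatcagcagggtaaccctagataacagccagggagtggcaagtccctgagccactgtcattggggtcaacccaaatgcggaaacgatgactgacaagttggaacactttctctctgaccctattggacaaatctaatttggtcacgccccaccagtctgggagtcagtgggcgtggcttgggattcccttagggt
Sdha: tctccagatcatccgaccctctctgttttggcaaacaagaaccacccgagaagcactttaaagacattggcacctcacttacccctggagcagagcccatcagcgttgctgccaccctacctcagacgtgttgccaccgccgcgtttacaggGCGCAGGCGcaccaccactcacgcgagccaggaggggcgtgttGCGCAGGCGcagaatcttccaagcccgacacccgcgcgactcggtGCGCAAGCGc
Cox6a1: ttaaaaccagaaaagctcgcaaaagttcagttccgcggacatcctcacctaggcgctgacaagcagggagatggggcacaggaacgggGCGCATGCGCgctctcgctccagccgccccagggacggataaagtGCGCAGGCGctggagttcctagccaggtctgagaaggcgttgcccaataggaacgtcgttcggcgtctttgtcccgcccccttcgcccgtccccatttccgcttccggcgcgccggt
Atp5k: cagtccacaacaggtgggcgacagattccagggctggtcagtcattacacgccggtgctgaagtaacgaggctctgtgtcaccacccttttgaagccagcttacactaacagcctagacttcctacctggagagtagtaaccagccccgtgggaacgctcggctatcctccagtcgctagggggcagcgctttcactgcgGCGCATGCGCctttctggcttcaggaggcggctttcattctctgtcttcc

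Most nuclear subunits of each respiratory complex were higher in brown fat. Of 36 complex I subunits, which pass electrons from NADH into the chain, 36 were higher, with a median log2 difference of 2.51. Complexes II and III had 13 of 13 higher (median 2.94), complex IV had 14 of 17 higher and 0 lower (median 2.60), and ATP synthase had 12 of 16 higher and 2 lower (median 1.90). Ndufab1, an acyl carrier subunit, had 60.2 to 75.5 FPKM against 9.94 to 10.8 FPKM (log2 difference 2.54, adjusted p = 1.3e-06), and Ndufs1, the largest iron-sulfur subunit of complex I, 80.3 to 95.2 FPKM against 9.02 to 12.6 FPKM (log2 difference 2.90, adjusted p = 1.3e-06). Sdha, which oxidises succinate, had 741, 604, 670.2 and 664 FPKM in brown libraries 1 to 4 and 50.6, 93.3, 84.5 and 89.2 FPKM in epididymal libraries 1 to 4 (log2 difference 3.10, SE 0.21, adjusted p = 8.4e-06). All brown libraries were above all epididymal ones, and epididymal library 1 was the lowest. Uqcrc1, a core subunit of complex III, had 398 to 496 FPKM against 28.7 to 48.2 FPKM (log2 difference 3.58, adjusted p = 3.3e-06). Atp5b, the catalytic subunit of ATP synthase, had 1660.2 to 1986 FPKM against 170.1 to 292 FPKM (log2 difference 2.91, adjusted p = 9.7e-06). The ATP synthase members that were lower in brown fat were Atpif1, the inhibitor that stops the enzyme from running backwards, and Atp5g1, 1 of 3 genes for its membrane ring. Atpif1 had 5.72, 7.45, 6.39 and 5.92 FPKM in brown libraries 1 to 4 and 47.2, 27.5, 16.5 and 17.0 FPKM in epididymal libraries 1 to 4 (log2 difference -1.80, SE 0.30, adjusted p = 0.0011). The groups did not overlap, and epididymal library 1 was the highest. Atp5g1 had 2.62 to 2.92 FPKM against 4.49 to 8.51 FPKM (log2 difference -1.11, adjusted p = 0.001), while Atp5g2, which encodes the same protein subunit, was higher in brown fat by 1.36 (0.58, adjusted p = 0.25 on the TPM scale), and Atp5g3 differed by 0.67 (adjusted p = 0.12).

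All 13 protein genes of the mitochondrial genome were higher in brown fat, with a median log2 difference of 2.68. After quantile normalisation, which caps the highest ranks, 9 of the 13 were called and the median was 1.32. Their summed share of all FPKM was 30.5, 28.6, 31.1 and 40.7% in brown libraries 1 to 4 and 8.09, 17.4, 7.87 and 8.46% in epididymal libraries 1 to 4. Brown library 4 and epididymal library 2 were the highest of their groups. The nuclear subunits made up 9.05, 7.54, 7.90 and 5.43% and 1.70, 1.47, 2.21 and 2.38% in the same order, with brown library 4 and epididymal library 2 the lowest. The ratio of mitochondrial to nuclear subunit FPKM was 3.37, 3.80, 3.94 and 7.50 in brown and 4.77, 11.9, 3.56 and 3.55 in epididymal libraries. Outside those libraries it lay between 3.37 and 4.77 in both depots. mt-Cytb, the cytochrome b gene, had 35407, 30379.8, 36584 and 47281 FPKM in brown libraries 1 to 4 and 3951, 6919, 4105 and 4665 FPKM in epididymal libraries 1 to 4 (log2 difference 2.95, SE 0.29, adjusted p = 5.4e-05). The groups did not overlap, and after quantile normalisation the difference was 0.48, adjusted p = 0.14. Reads of some mitochondrial genes can also match nuclear copies, so the levels of single mitochondrial genes are uncertain.

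Several steps of brown fat metabolism have a pair of related genes, of which 1 is known as the brown or muscle form. The share of that form within the pair's summed FPKM was compared for 14 pairs. In 12 the log2 ratio did not overlap between the depots (exact permutation test, two-sided, p = 0.0286 for each). This is the smallest p that 4 against 4 libraries allow, and it was 0.0333 after adjustment over the 14 pairs. The 12 include Cox4i2 with Cox4i1, which went the other way, and Ckmt2 with Ckmt1, without reads in brown library 2. The pairs were chosen from known forms, and other gene pairs were not tested, so the count has no background to be read against. Ucp1, Cpt1b, Slc27a2 and Elovl3 had epididymal means under 0.5 FPKM, so the direction of their ratios was largely set by the choice. Cox7a1, the heart and muscle form of a complex IV subunit, made up 77.5, 75.2, 73.2 and 67.9% of Cox7a1 and Cox7a2 in brown libraries 1 to 4 and 5.20, 1.41, 9.11 and 9.75% in epididymal libraries 1 to 4. It led in every brown library and was the minor form in every epididymal library. Cox8b made up 68.6, 70.5, 72.2 and 71.4% of Cox8b and Cox8a in brown and 7.16, 3.65, 8.53 and 7.48% in epididymal libraries. Cox8b itself had 4580.3, 4211, 4637 and 2357 FPKM in brown libraries 1 to 4 and 18.5, 5.21, 47.7 and 46.7 FPKM in epididymal libraries 1 to 4 (log2 difference 7.37, SE 0.62, adjusted p = 2.2e-05). Brown library 4 was the lowest of its group, with no overlap. The isoform pairs of complex IV were not all alike. Cox4i2, the lung and hypoxia form, was a smaller share of its pair in brown than in epididymal fat, at 0.516% ± 0.107 against 1.64% ± 0.477 (SD, n = 4), and the muscle form Cox6a2 overlapped between the depots, with 0.441, 0.279, 5.70 and 13.3 FPKM in brown libraries 1 to 4, highest in libraries 3 and 4, which had the most muscle transcripts.

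Pairs that handle droplets and fatty acids differed as well. Fabp3, the heart fatty acid binding protein, made up 44.5, 44.7, 38.2 and 37.4% of Fabp3 and Fabp4 in brown libraries 1 to 4 and 0.157, 0.0213, 0.0801 and 0.0545% in epididymal libraries 1 to 4. Fabp4, the adipocyte form, was not called (log2 difference 0.36, adjusted p = 0.31), and Fabp3 had 1622, 1468, 1274 and 955 FPKM in brown libraries 1 to 4 and 1.37, 0.409, 1.20 and 0.965 FPKM in epididymal libraries 1 to 4 (log2 difference 9.39, SE 0.22, adjusted p = 4.2e-08). In brown library 2, which nearly lacked muscle transcripts, Fabp3 was as high as in the others. Cidea was 72.9, 70.7, 74.9 and 74.8% of Cidea and Cidec in brown and 0.0688, 0.452, 0.424 and 0.390% in epididymal libraries. Cidec, which favours large droplets in white adipocytes, went the other way, with 446 to 567 FPKM against 737 to 1651 FPKM (log2 difference -1.08, adjusted p = 0.016). Cpt1b, the muscle form of the enzyme that lets fatty acids into mitochondria, was 46.6, 40.2, 48.5 and 26.6% of its pair in brown and 0.0331, 0.0615, 0.189 and 0.321% in epididymal libraries. Cpt1a, the liver form, was lower in brown fat, with 7.49, 8.06, 6.28 and 8.13 FPKM in brown libraries 1 to 4 and 37.3, 46.4, 33.6 and 34.4 FPKM in epididymal libraries 1 to 4 (log2 difference -2.19, SE 0.14, adjusted p = 6.1e-06). There was no overlap between the groups, and each was tight. Ucp1 made up 99.7, 99.5, 99.6 and 99.5% of Ucp1 and Ucp2 in brown and 0.184, 0.789, 0.396 and 0.524% in epididymal libraries. Ucp2, a carrier that macrophages express, had 8.52 to 13.6 FPKM against 55.4 to 96.5 FPKM (log2 difference -2.67, adjusted p = 1.4e-05). Elovl3 (with Elovl5), Slc27a2 (with Slc27a1), Plin5 (with Plin1) and the nucleotide carrier Slc25a4 (with Slc25a5) were also larger shares in brown fat, from 63.2% against 1.66% for Elovl3 to 40.0% against 34.1% for Slc25a4. In the auranofin libraries the Slc25a4 share overlapped, at 37.7 to 51.0% in brown and 41.7 to 44.5% in epididymal fat. Esrrg and Esrra overlapped. The pair of creatine kinases Ckmt2 and Ckmt1 did not overlap, but it has no reads in brown library 2 and follows the muscle transcripts of the others.

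**Figure D3:**
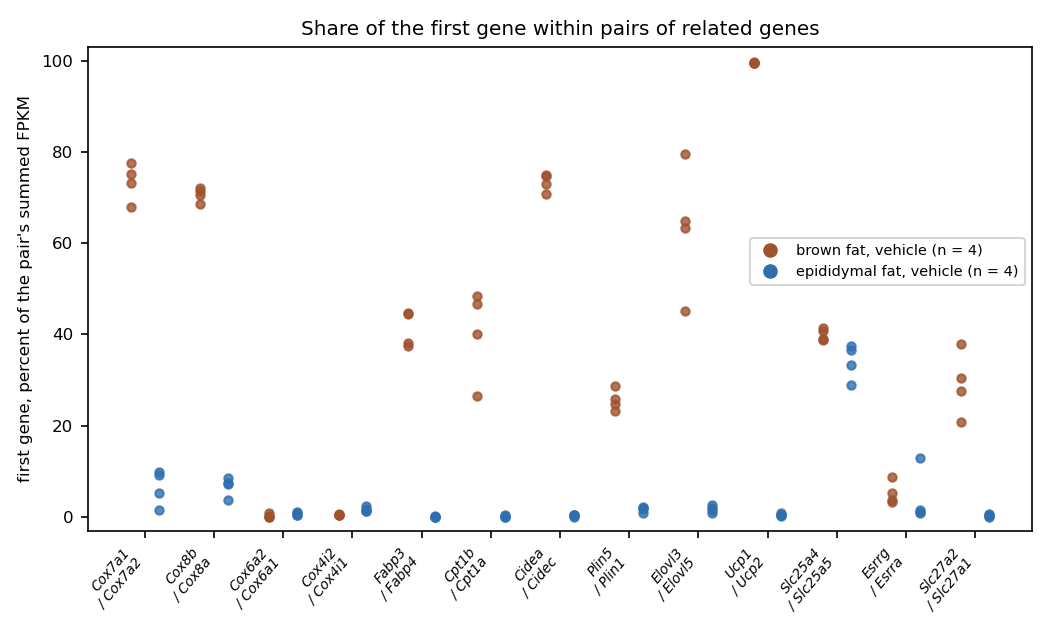
Share of the first-named gene in the summed FPKM of each pair of related genes (y axis, percent), by library; brown points are brown fat and blue points epididymal fat of vehicle mice (n = 4 each). Cox7a1, Cox8b, Cidea, Elovl3 and Ucp1 are far higher shares in every brown library than in any epididymal one, while Cox4i2 and Cox6a2 lie near 0 in all.

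Nearly all genes of fuel oxidation were higher in brown fat. Of 21 genes of the citrate cycle and pyruvate oxidation, 20 were higher and 0 lower (median 2.92). Suclg1, a subunit of succinyl-CoA ligase, had 237 to 288 FPKM against 14.1 to 22.2 FPKM (log2 difference 3.68, adjusted p = 1.3e-06). The member that did not pass was Pcx, pyruvate carboxylase, which feeds the cycle and also fat synthesis, at 144 to 182 FPKM against 64.3 to 188 FPKM, with the epididymal libraries 3 and 4 level with brown fat. Of 25 genes of fatty acid oxidation, 22 were higher and 1, Cpt1a, was lower (median 2.73). Hadha and Hadhb, the subunits of the mitochondrial trifunctional protein, had 326 to 365 FPKM against 26.6 to 33.7 FPKM (log2 difference 3.46, adjusted p = 6.2e-07) and 537 to 644 FPKM against 32.3 to 44.3 FPKM (log2 difference 3.94, adjusted p = 6.2e-07). Acaa2, the thiolase of the last step, had 1727 to 2199 FPKM against 70.5 to 121 FPKM (log2 difference 4.37, adjusted p = 1.3e-06). The peroxisomal thiolases Acaa1a and Acaa1b did not pass. Of 20 genes of mitochondrial biogenesis and dynamics, 14 were higher and 0 lower (median 1.06; 9 higher and 3 lower on the TPM scale). Immt, which shapes cristae, led with 61.1 to 72.5 FPKM against 10.8 to 17.8 FPKM (log2 difference 2.15, adjusted p = 1.1e-05), and Opa1, which fuses inner membranes, had 23.7 to 29.5 FPKM against 6.40 to 9.05 FPKM (log2 difference 1.69, adjusted p = 1.7e-05). Nrf1, the factor named above, was at 1.38 to 1.98 FPKM against 1.24 to 1.57 FPKM and did not pass (adjusted p = 0.42), though it was lower on the TPM scale (log2 difference -0.51, adjusted p = 0.02).

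Genes of glucose use were higher as well. Of 29 tested genes of glucose uptake and glycolysis (30 listed), 23 were higher and 1 was lower in brown fat (median 2.04). Slc2a4, the insulin-responsive glucose transporter, had 114, 107, 128 and 91.8 FPKM in brown libraries 1 to 4 and 7.28, 7.09, 25.7 and 28.6 FPKM in epididymal libraries 1 to 4 (log2 difference 2.86, SE 0.44, adjusted p = 0.00067). Brown and epididymal libraries did not overlap, and epididymal libraries 1 and 2 were the lowest. Gpd2, the mitochondrial glycerol phosphate dehydrogenase that carries cytosolic electrons to the chain, had 146, 127, 141 and 176 FPKM in brown libraries 1 to 4 and 2.23, 3.39, 2.59 and 2.82 FPKM in epididymal libraries 1 to 4 (log2 difference 5.30, SE 0.15, adjusted p = 1.1e-07). Its cytosolic partner Gpd1 had 1602 to 2258 FPKM against 133 to 297 FPKM (log2 difference 3.32, adjusted p = 3.2e-05). Ldhb, the lactate dehydrogenase form of oxidative tissues, had 309 to 390.4 FPKM against 12.4 to 26.3 FPKM (log2 difference 3.97, adjusted p = 3.4e-06), and Ldha 412 to 479 FPKM against 135 to 219.8 FPKM (log2 difference 1.29, adjusted p = 0.00051; 0.48, adjusted p = 0.063 on the TPM scale). Pdk4, a kinase that shuts pyruvate dehydrogenase, was also among the 10 genes that differed most, with 821, 689, 847 and 1105 FPKM in brown libraries 1 to 4 and 20.5, 29.6, 26.1 and 37.2 FPKM in epididymal libraries 1 to 4 (log2 difference 4.89, SE 0.22, adjusted p = 1.1e-06). Brown fat was above epididymal fat in every library. The member lower in brown fat was Hk3, a hexokinase of myeloid cells, with 0.637 to 1.17 FPKM against 12.5 to 28.2 FPKM (log2 difference -3.24, adjusted p = 1.0e-05). Eno3 and Pgam2, muscle forms, were called, but their values in brown library 2 were 6.10 and 2.78 FPKM, against up to 33.9 and 17.8 FPKM in library 4. The call of Pgam2 was lost without brown library 3 or 4 or epididymal library 1, 2 or 4 (adjusted p = 0.053 to 0.081) and on the TPM scale (1.40, adjusted p = 0.085), and that of Eno3 without epididymal libraries 1 and 2 (1.54, adjusted p = 0.063).

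Most genes of fatty acid synthesis were higher in brown fat too. Of 18 tested genes (21 listed), 11 were higher and 2 lower (median 1.95). Fasn, fatty acid synthase, had 1028, 1011, 2036 and 1316 FPKM in brown libraries 1 to 4 and 70.1, 111, 154 and 189 FPKM in epididymal libraries 1 to 4 (log2 difference 3.39, SE 0.34, adjusted p = 6.3e-05). Brown library 3 was the highest, as it was for Acaca, Acly, Scd1 and Elovl3. Acaca and Acacb, the acetyl-CoA carboxylases, had 80.8 to 160.4 FPKM against 4.02 to 7.23 FPKM (log2 difference 3.94, adjusted p = 6.4e-06) and 65.1 to 117 FPKM against 2.48 to 6.15 FPKM (log2 difference 4.09, adjusted p = 6.1e-06). Elovl6 had 55.6 to 118 FPKM against 2.46 to 5.68 FPKM (log2 difference 4.00, adjusted p = 9.9e-06). Mlxipl, which encodes the glucose-sensing factor ChREBP, had 57.5 to 76.0 FPKM against 2.81 to 9.005 FPKM (log2 difference 3.29, adjusted p = 3.5e-05), while Srebf1, the sterol-regulated factor of the same pathway, was at 26.0 to 44.1 FPKM against 14.0 to 39.8 FPKM and did not pass (adjusted p = 0.24). The lower members were Elovl1, which makes very long chains, at 5.58 to 7.57 FPKM against 19.7 to 24.6 FPKM, and Fads1, a desaturase of polyunsaturated fatty acids, at 4.27 to 5.43 FPKM against 10.6 to 15.9 FPKM (log2 differences -1.53 and -1.26).

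Lipid storage and lipolysis genes were divided. Of 32 tested (33 listed), 16 were higher and 4 lower, with a median of 0.84 that was 0.08 on the TPM scale, where 8 were higher and 10 lower. Pnpla2, the first lipase of triglyceride breakdown, had 908, 796, 824 and 841 FPKM in brown libraries 1 to 4 and 164, 174, 335 and 404 FPKM in epididymal libraries 1 to 4 (log2 difference 1.75, SE 0.30, adjusted p = 0.0013). There was no overlap between the groups, and epididymal libraries 1 and 2, which had the fewest adipocyte transcripts, were the lowest. Without these 2 libraries the difference was 1.19 (adjusted p = 0.00052). Plin5, which ties droplets to mitochondria, had 98.2 to 145 FPKM against 1.29 to 5.55 FPKM (log2 difference 4.88, adjusted p = 6.2e-06), and Gpam, the first enzyme of triglyceride assembly, 27.1 to 32.1 FPKM against 4.98 to 7.77 FPKM (log2 difference 2.05, adjusted p = 8.6e-06). Pck1, which makes glycerol phosphate for re-esterification, had 774 to 1271 FPKM against 39.3 to 212 FPKM (log2 difference 3.44, adjusted p = 0.00035), and Slc27a2, a fatty acid transporter, 10.3 to 24.3 FPKM against 0.0622 to 0.266 FPKM (log2 difference 3.85, adjusted p = 3.4e-06). The members lower in brown fat included Lpl, Fabp5 and Cd36. Lpl, the lipase that frees fatty acids from circulating triglyceride, had 218, 262, 206 and 304 FPKM in brown libraries 1 to 4 and 521, 1063, 528 and 558 FPKM in epididymal libraries 1 to 4 (log2 difference -1.37, SE 0.26, adjusted p = 0.0024). Epididymal library 2 was the highest, and no epididymal library was as low as any brown one. Fabp5, another fatty acid binding protein, was lower in brown fat too, at 24.0 to 52.1 FPKM against 60.7 to 80.1 FPKM (log2 difference -1.04, adjusted p = 0.0066). Cd36, a fatty acid receptor, had 714 to 961 FPKM against 976 to 1731 FPKM (log2 difference -0.64, adjusted p = 0.043), and its call was lost without brown library 1, 2 or 3 or epididymal library 1, 2 or 4 (adjusted p = 0.053 to 0.11).

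Beta-adrenergic receptors Adrb3 and Adrb1 were higher in brown fat. Adrb3, the beta3 receptor of adipocytes, had 186, 154, 111 and 110.1 FPKM in brown libraries 1 to 4 and 14.5, 5.75, 26.4 and 48.4 FPKM in epididymal libraries 1 to 4 (log2 difference 2.83, SE 0.53, adjusted p = 0.0021). Epididymal library 2 was the lowest, and no epididymal library reached the brown ones. Adrb1, the beta1 receptor, had 15.1, 11.5, 9.92 and 9.84 FPKM in brown libraries 1 to 4 and 0.368, 0.849, 1.80 and 1.72 FPKM in epididymal libraries 1 to 4 (log2 difference 2.57, SE 0.24, adjusted p = 4.3e-05). Neither overlapped between the depots, and per gene length Adrb3 was the more abundant of the pair in every library of both depots. Adra1a, an alpha1 receptor, had 5.95 to 9.18 FPKM against 0.921 to 2.05 FPKM (log2 difference 1.76, adjusted p = 4.8e-05). Of the 27 tested genes of adrenergic and cyclic AMP signalling (32 listed), 11 were higher and 6 lower, with a median of 0.38 that turned to -0.20 on the TPM scale. Pde4d, a phosphodiesterase that breaks down cyclic AMP, had 4.16 to 5.71 FPKM against 0.257 to 0.646 FPKM (log2 difference 2.03, adjusted p = 5.7e-06). Adenylyl cyclases Adcy5 and Adcy7 were lower in brown fat, with 1.44 to 2.60 FPKM against 13.0 to 33.7 FPKM and 1.09 to 2.37 FPKM against 11.1 to 23.0 FPKM (log2 differences -2.79 and -2.72), and Gnai1, an inhibitory G protein, was lower as well (log2 difference -1.97).

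Among 29 tested transcription factors of adipocytes (31 listed), 18 were higher and 3 lower, or 13 and 2 of the 23 that reached 0.5 FPKM in both depots (median 0.79, and 0.15 on the TPM scale). Ppara, which drives fatty acid oxidation, had 20.2, 15.0, 17.5 and 25.5 FPKM in brown libraries 1 to 4 and 0.184, 0.739, 0.448 and 0.523 FPKM in epididymal libraries 1 to 4 (log2 difference 3.79, SE 0.18, adjusted p = 1.3e-06), with no overlap. Ppargc1b, a relative of Ppargc1a, had 9.13 to 14.9 FPKM against 0.388 to 0.714 FPKM (log2 difference 3.03, adjusted p = 1.9e-06). Pparg, the factor that adipocytes of both kinds need, had 97.5 to 111 FPKM against 30.6 to 55.6 FPKM (log2 difference 1.34, adjusted p = 0.00033). Esrra, the estrogen-related receptor of mitochondrial genes, had 35.6 to 76.9 FPKM against 2.39 to 16.2 FPKM (log2 difference 2.51, adjusted p = 0.0027). The 3 that were lower were Zfp423, a factor known to keep white fat white, at 2.74 to 3.73 FPKM against 5.26 to 9.94 FPKM (log2 difference -1.06, adjusted p = 0.0015), Foxc2 at 0.110 to 0.185 FPKM against 0.318 to 1.50 FPKM (log2 difference -0.70, adjusted p = 0.021), and Irf4. The call of Foxc2 was lost without brown library 1 or epididymal library 4 (adjusted p = 0.051 to 0.053).

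Patterning factors, which mark where along the body a depot formed, differed gene by gene. Of 51 listed, 30 were tested, 8 were higher and 9 lower (6 and 4 of the 22 that reached 0.5 FPKM in both depots), with a median of -0.12 (0.028 after quantile normalisation). Hoxc9, a posterior Hox gene, had no reads in the 4 brown libraries and 1.25, 0.455, 1.68 and 1.35 FPKM in epididymal libraries 1 to 4. Its epididymal mean was at least 13.6-fold higher than the level of 3 reads per library in brown fat. Tcf21, a factor of visceral mesenchyme, had no reads in brown fat and 1.93, 0.921, 2.18 and 2.88 FPKM in epididymal fat, at least 21.9-fold higher by the same limit. Wt1, a factor of visceral fat and mesothelium, had 0, 0, 0.0236 and 0 FPKM in brown and 2.71, 2.54, 2.10 and 1.53 FPKM in epididymal libraries (log2 difference -1.66, adjusted p = 2.0e-05). Inguinal fat shared Hoxc9 with the epididymal depot (8.21 ± 1.51 FPKM) but not Tcf21 (0 ± 0 FPKM) or Wt1 (0.0199 ± 0.0398 FPKM; SD, n = 4 each). Hoxc8 was lower in brown fat as well, with 0, 3.86, 2.84 and 4.94 FPKM in brown libraries 1 to 4 and 13.6, 29.1, 23.3 and 23.1 FPKM in epididymal libraries 1 to 4 (log2 difference -2.80, SE 0.51, adjusted p = 0.0019). It had no reads in brown library 1. The anterior genes Hoxa4 and Hoxa5 went the other way, with 4.77 to 6.21 FPKM against 0.452 to 1.08 FPKM (log2 difference 1.84, adjusted p = 1.5e-05) and 8.81 to 13.7 FPKM against 3.33 to 4.15 FPKM (log2 difference 1.37, adjusted p = 6.4e-05). Zic1, a marker of brown fat, lay below the filter with 1.01, 0.865, 0.347 and 0.437 FPKM in brown libraries and no reads in epididymal ones, which makes it at least 28.2-fold higher in brown fat. Shox2 and Tbx15 were higher in brown fat by 1.22 and 1.29, and Gata6, a visceral factor, was lower (log2 difference -1.07). Neighbouring Hox genes overlap with antisense transcripts that these libraries, made without strand, cannot part.

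**Figure D4:**
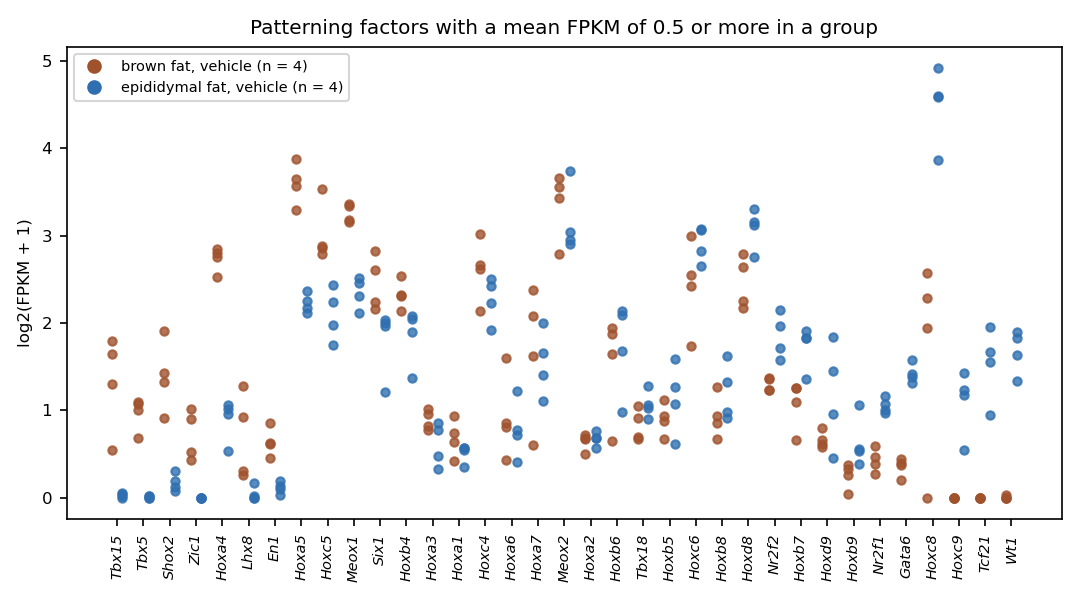
Log2(FPKM + 1) of patterning factors with a mean of 0.5 FPKM or more in either depot (y axis), by library, ordered from brown to epididymal by the ratio of means; brown points are brown fat and blue points epididymal fat of vehicle mice (n = 4 each). Tbx15, Shox2 and Zic1 stand at the brown end, and Hoxc9, Tcf21 and Wt1, at or near 0 in brown fat, at the other.

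Proteins of heat production without Ucp1 were mixed. Of 11 tested genes of creatine and calcium cycling (15 listed), 5 were higher and 5 lower, or 2 and 5 of the 7 that reached 0.5 FPKM in both depots, and 3 were higher without brown library 3 or 4 or any 1 epididymal library. The creatine synthesis enzymes Gatm and Gamt were lower in brown fat, at 0.974 to 2.08 FPKM against 4.37 to 8.26 FPKM (log2 difference -1.55, adjusted p = 0.00042) and 4.91 to 7.44 FPKM against 9.79 to 29.3 FPKM (log2 difference -1.55, adjusted p = 0.0039), as was Ckb, the creatine kinase, at 8.87 to 16.7 FPKM against 35.0 to 69.2 FPKM (log2 difference -1.79, adjusted p = 0.00077). Alpl, a phosphatase that acts on phosphocreatine, was higher at 3.00 to 4.53 FPKM against 0.537 to 1.07 FPKM (log2 difference 1.36, adjusted p = 0.00011). Atp2a2, the calcium pump SERCA2, had 38.9 to 44.1 FPKM against 22.2 to 32.2 FPKM (log2 difference 0.67, adjusted p = 0.0036), a difference of -0.12 on the TPM scale. The muscle genes Ckm and Atp2a1 passed the test but followed the muscle transcripts, and the test was not passed without brown library 3 or 4 or any 1 epididymal library (adjusted p = 0.062 to 0.097 for Ckm). Atp2a1 had 5.22, 0, 24.1 and 78.3 FPKM in brown libraries 1 to 4, and Ckm 2.65, 0.0434, 13.9 and 39.0 FPKM. Acta1, skeletal actin, had 15.6, 1.69, 80.8 and 207 FPKM in brown libraries 1 to 4 and 8.08, 5.32, 11.7 and 10.7 FPKM in epididymal libraries 1 to 4, which overlap (log2 difference 1.62, adjusted p = 0.27). With brown library 2 alone, the median over 16 muscle markers, 9 of which passed the filter only through brown fat, was -0.09 in place of 1.73.

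Most genes of the white fat adipokine list were lower in brown fat. Of 20 tested (22 listed, not all of which encode hormones), 13 were lower and 1 higher (median -1.23). Lep, which encodes the satiety hormone leptin (chr6:29060220-29073877), had 93.2, 159, 67.5 and 75.4 FPKM in brown libraries 1 to 4 and 445, 661, 886 and 865 FPKM in epididymal libraries 1 to 4 (log2 difference -2.87, SE 0.32, adjusted p = 9.9e-05). Brown and epididymal libraries did not overlap, and epididymal libraries 3 and 4 were the highest. Retn, which encodes resistin, had 20.6, 22.1, 20.8 and 25.6 FPKM in brown libraries 1 to 4 and 98.6, 146, 203 and 225 FPKM in epididymal libraries 1 to 4 (log2 difference -2.80, SE 0.25, adjusted p = 3.0e-05). Adipoq, which encodes adiponectin, overlapped between the depots, with 669, 682, 496 and 626 FPKM in brown libraries 1 to 4 and 596, 1070.1, 1395 and 1571 FPKM in epididymal libraries 1 to 4 (log2 difference -0.82, SE 0.31, adjusted p = 0.051). Epididymal library 1, with 596 FPKM, lay within the brown range, and without it Adipoq was lower in brown fat (log2 difference -1.11, adjusted p = 0.0035). Adipoq was also lower on the TPM scale (log2 difference -1.64, adjusted p = 0.001) and after quantile normalisation (log2 difference -1.46, adjusted p = 0.0027). Agt, angiotensinogen, had 0.200 to 0.309 FPKM against 5.69 to 15.8 FPKM (log2 difference -3.16, adjusted p = 2.1e-05), and Igf1, a growth factor that macrophages also make, 1.07 to 2.09 FPKM against 13.8 to 33.0 FPKM (log2 difference -3.13, adjusted p = 2.1e-05). Sfrp5, an adipocyte-secreted inhibitor of Wnt signalling, was among the 10 largest differences, with 1.58, 3.79, 1.66 and 1.72 FPKM in brown libraries 1 to 4 and 53.1, 59.1, 144 and 187 FPKM in epididymal libraries 1 to 4 (log2 difference -4.98, SE 0.42, adjusted p = 2.2e-05). Libraries 3 and 4 were again the highest, and inguinal fat had 262 ± 31.4 FPKM. Nampt, the enzyme of NAD salvage, was the member higher in brown fat, at 44.3 to 52.3 FPKM against 16.5 to 29.2 FPKM (log2 difference 1.26, adjusted p = 0.00047). Of 12 tested genes of the list of brown fat secreted factors (17 listed), 8 were higher and 1 lower (median 1.22). The lower member was Ephx1, an intracellular epoxide hydrolase, at 18.4 to 31.4 FPKM against 55.3 to 67.8 FPKM (log2 difference -1.28, adjusted p = 0.0003). Vegfa, which draws in blood vessels, had 79.3 to 105 FPKM against 14.2 to 24.2 FPKM (log2 difference 2.34, adjusted p = 2.1e-05), and Ptgds, a prostaglandin synthase, 11.2 to 22.7 FPKM against 0 to 0.283 FPKM (log2 difference 3.75, adjusted p = 3.1e-06). Fgf21 was not called, at 0.598 to 4.69 FPKM against 0.152 to 0.769 FPKM (adjusted p = 0.077), with brown library 3 the highest, but it was called without brown library 4 (log2 difference 1.08, adjusted p = 0.026).

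Macrophage genes were lower in brown fat without exception in the list fixed for them: 20 of 20 were lower, with a median log2 difference of -2.75, and -2.62 with 20 of 20 lower when epididymal libraries 1 and 2 were left out. Adgre1, the F4/80 antigen (chr17:57358691-57483527), had 3.68, 6.30, 2.17 and 4.43 FPKM in brown libraries 1 to 4 and 106, 83.1, 54.0 and 52.8 FPKM in epididymal libraries 1 to 4 (log2 difference -3.87, SE 0.30, adjusted p = 1.5e-05). The lowest epididymal library lay far above the highest brown one. Inguinal fat had 7.42 ± 3.73 FPKM (SD, n = 4), near brown fat. Csf1r, the receptor of the macrophage growth factor, had 4.56 to 8.82 FPKM against 54.7 to 85.3 FPKM (log2 difference -3.24, adjusted p = 9.0e-06), and Laptm5, a lysosomal protein of leukocytes, 4.60 to 8.22 FPKM against 50.1 to 97.1 FPKM (log2 difference -3.41, adjusted p = 1.3e-05). Of 15 genes of lipid-associated macrophages, which gather around dying adipocytes, 12 were lower and 1 higher (median -3.20, and -2.40 with 14 lower without libraries 1 and 2). Trem2, their lipid receptor, had 0.924, 2.58, 1.24 and 1.32 FPKM in brown libraries 1 to 4 and 71.5, 22.8, 24.5 and 31.9 FPKM in epididymal libraries 1 to 4 (log2 difference -3.82, SE 0.35, adjusted p = 3.5e-05). Gpnmb had the largest difference of all protein-coding genes on the epididymal side, with 3.39, 9.10, 2.67 and 5.71 FPKM in brown libraries 1 to 4 and 368, 323, 119 and 174 FPKM in epididymal libraries 1 to 4 (log2 difference -5.28, SE 0.42, adjusted p = 1.7e-05). In both genes library 1 was the highest epididymal library. Mmp12, macrophage elastase, and Atp6v0d2, a subunit of a lysosomal proton pump, were among the same 10, at 1.42 to 4.39 FPKM against 37.7 to 298 FPKM (log2 difference -5.10, adjusted p = 0.00021) and 0.938 to 3.43 FPKM against 33.5 to 168 FPKM (log2 difference -4.58, adjusted p = 9.2e-05). The member higher in brown fat was Plin2, a droplet protein that adipocytes also make, at 412 to 617 FPKM against 224 to 441 FPKM (log2 difference 0.72, adjusted p = 0.034), which was not called without brown library 2, 3 or 4 or epididymal library 3 or 4 (adjusted p = 0.054 to 0.098) and differed by -0.10, adjusted p = 0.74 on the TPM scale.

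**Figure D5:**
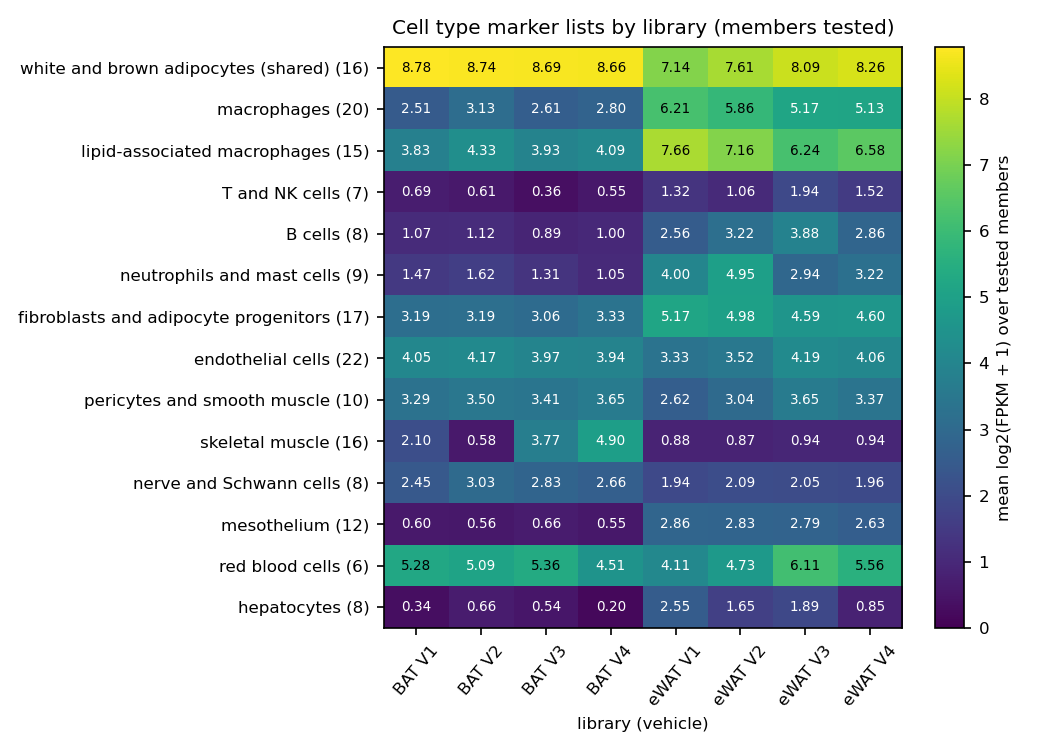
Mean log2(FPKM + 1) over the tested members of each cell type marker list (rows, with the number of members tested), by vehicle library (columns). Macrophage, progenitor and mesothelial rows are higher in the 4 epididymal libraries, and the skeletal muscle row is high in brown libraries 1, 3 and 4 only.

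Antigen presentation and complement were lower in brown fat for 20 of 21 genes (median -2.48), the other being Cfd, complement factor D, which adipocytes secrete. Cfd had 297, 269, 168 and 227 FPKM in brown libraries 1 to 4 and 95.9, 106, 495 and 584 FPKM in epididymal libraries 1 to 4, which overlap, and was lower in brown fat when epididymal libraries 1 and 2 were left out (log2 difference -1.19, adjusted p = 0.0053). Cd74, the invariant chain of MHC class II, had 114, 192, 118 and 113 FPKM in brown libraries 1 to 4 and 796, 739.7, 737 and 675 FPKM in epididymal libraries 1 to 4 (log2 difference -2.48, SE 0.20, adjusted p = 2.0e-05), with no overlap. C4b had 10.5 to 13.8 FPKM against 109 to 199 FPKM (log2 difference -3.44, adjusted p = 5.0e-06), and H2-Ab1 39.0 to 66.0 FPKM against 265 to 282 FPKM (log2 difference -2.48, adjusted p = 9.3e-06). C7, a late complement component, was among the 10 largest, at 0.683 to 2.02 FPKM against 22.7 to 71.4 FPKM (log2 difference -4.41, adjusted p = 1.4e-05), and Ubd, a ubiquitin-like protein induced by interferon, had 4.81 to 9.90 FPKM against 143 to 203 FPKM (log2 difference -4.30, adjusted p = 1.7e-06). Of 25 tested inflammatory ligands and receptors (29 listed), 16 were lower and 1 higher (median -1.30). Of the 22 that reached 0.5 FPKM in both depots, 13 were lower and 1 higher. The others, Saa3 among them, passed the filter only through epididymal fat. Tnfrsf1b, a receptor of tumour necrosis factor, had 3.76 to 4.83 FPKM against 19.9 to 31.8 FPKM (log2 difference -2.18, adjusted p = 1.2e-05), Saa3, an acute-phase protein, 0.109 to 0.449 FPKM against 7.10 to 20.7 FPKM (log2 difference -3.28, adjusted p = 2.7e-05), and Ccl6, a chemokine, 10.6 to 19.0 FPKM against 139 to 399 FPKM (log2 difference -3.66, adjusted p = 3.2e-05). Tnf did not pass, at 0.390 to 1.08 FPKM against 0.616 to 1.42 FPKM, though it was lower on the TPM scale (log2 difference -0.87, adjusted p = 0.031). The ligand higher in brown fat was Cxcl1, a chemokine of neutrophils, at 5.04 to 15.3 FPKM against 0.769 to 5.93 FPKM (log2 difference 1.99, adjusted p = 0.0067). The groups overlapped, and in the auranofin libraries Cxcl1 differed by 0.05 (adjusted p = 0.91). Few lymphocyte markers were tested. In the T and NK cell list 7 of 21 genes were tested, 5 of them only through epididymal fat, and in the B cell list 8 of 13, 6 of them only through epididymal fat. Of those that reached 0.5 FPKM in both depots, 2 of 2 T and NK genes and 1 of 2 B cell genes were lower, and 0 were higher. The B cell gene was Ighm, an antibody heavy chain, at 29.0 to 53.6 FPKM against 287 to 832 FPKM (log2 difference -3.71, adjusted p = 4.9e-05). Jchain, which joins secreted antibodies and marks plasma cells, passed the filter only through epididymal fat. It had 0.506, 0.176, 0.610 and 0.198 FPKM in brown libraries 1 to 4 and 23.0, 92.5, 41.1 and 22.2 FPKM in epididymal libraries 1 to 4 (log2 difference -4.82, SE 0.40, adjusted p = 2.2e-05). Epididymal library 2 was the highest. The mast cell proteases Mcpt4, Cma1 and Tpsb2 were lower in brown fat (log2 differences -3.94, -4.16 and -4.06), and here too epididymal library 2 was the highest, at 209 FPKM for Mcpt4 against 21.1 to 67.7 FPKM in the other epididymal libraries.

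Most matrix and stromal genes were lower in brown fat. Of 42 tested collagen and matrix genes (43 listed), 32 were lower and 4 higher (median -1.44). Col6a5, a collagen VI chain, had 0.0318, 0.0134, 0 and 0 FPKM in brown libraries 1 to 4 and 16.1, 19.1, 14.0 and 10.2 FPKM in epididymal libraries 1 to 4 (log2 difference -3.94, SE 0.17, adjusted p = 9.1e-07), near 0 in brown fat. Timp2, an inhibitor of matrix proteases, had 14.5 to 19.8 FPKM against 156 to 186 FPKM (log2 difference -3.25, adjusted p = 9.6e-07), and Fn1, fibronectin, 3.99 to 4.87 FPKM against 41.1 to 63.9 FPKM (log2 difference -3.27, adjusted p = 1.3e-06). The 4 that were higher in brown fat were Col12a1, Tnc, Thbs1 and Timp3, by 0.80, 0.52, 1.26 and 0.78. In the auranofin libraries no member of the list was called higher. There Thbs1 differed by -1.63 (adjusted p = 0.053), Tnc by -0.29 (adjusted p = 0.26) and Col12a1 by 0.32 (adjusted p = 0.19). On the TPM scale Tnc and Timp3 were -0.09 and 0.03, and Timp3 was not called without any 1 brown library or epididymal library 2 (adjusted p = 0.051 to 0.099). Of 17 genes of fibroblasts and adipocyte progenitors, 13 were lower and 0 higher (median -1.82). Pdgfra, a receptor that progenitors carry, had 1.18 to 3.22 FPKM against 6.92 to 13.0 FPKM (log2 difference -1.95, adjusted p = 0.00024), and Dpp4, a marker of early progenitors, 0.332 to 0.613 FPKM against 2.75 to 4.69 FPKM (log2 difference -1.60, adjusted p = 5.0e-05). Of the 16 mesothelial genes listed, 12 were tested, 11 of them only through epididymal fat, where brown fat had a mean under 0.5 FPKM, so the direction of their count was fixed by the filter. Mesothelium lines the abdominal cavity, in which the epididymal depot lies. Msln, mesothelin, and Upk1b had no reads in any brown library and means of 4.82 ± 2.08 and 4.56 ± 1.40 FPKM in epididymal fat, at least 48.2-fold and 45.0-fold above 3 reads per library. Of 24 tested cell division genes (27 listed), 12 passed the filter only through epididymal fat, and the 12 others, which reached 0.5 FPKM in both depots, were lower in brown fat. Mki67, the proliferation antigen, was among those that passed only through epididymal fat, which fixed its direction. Its values were 0.402, 0.571, 0.305 and 0.572 FPKM in brown libraries 1 to 4 and 5.39, 6.68, 1.73 and 1.60 FPKM in epididymal libraries 1 to 4 (log2 difference -1.57, SE 0.35, adjusted p = 0.0051). Epididymal libraries 1 and 2, those with the highest macrophage level, were the highest. The part of macrophages in this was not tested.

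Blood vessel genes differed in both directions. Of 22 tested endothelial genes (23 listed), 5 were higher and 3 lower (3 higher without brown library 1 or 2 and 8 without epididymal library 4), with a median of 0.47 that was -0.25 on the TPM scale. Flt1 and Kdr, the receptors of Vegfa, had 11.5 to 14.3 FPKM against 2.94 to 5.88 FPKM (log2 difference 1.21, adjusted p = 0.00066) and 15.6 to 19.6 FPKM against 5.11 to 11.5 FPKM (log2 difference 1.02, adjusted p = 0.0041; 0.28, adjusted p = 0.27 on the TPM scale). Plvap, of fenestrated vessels, and Lyve1, of lymphatic vessels and some macrophages, were lower in brown fat, at 3.61 to 6.19 FPKM against 15.9 to 41.5 FPKM (log2 difference -2.22, adjusted p = 0.00022) and 0.976 to 2.41 FPKM against 6.59 to 16.5 FPKM (log2 difference -2.13, adjusted p = 0.00019). Pecam1, found in all endothelium, did not pass, at 35.0 to 45.4 FPKM against 21.8 to 55.0 FPKM, though it was lower on the TPM scale (log2 difference -0.65, adjusted p = 0.032). Of 10 tested pericyte and smooth muscle genes (12 listed), 4 were higher and 2 lower, and on the TPM scale 0 were higher. Of 8 tested nerve and Schwann cell genes (14 listed), 5 were higher and 2 lower, S100b among the higher, with 2 and 2 among the 4 that reached 0.5 FPKM in both depots, and 3 were higher without brown library 2 or 3 or epididymal library 1. None of the 6 tested red blood cell genes passed (10 listed). Of 8 tested hepatocyte genes (17 listed), 5 passed the filter only through epididymal fat, and of the 3 others 1 was lower in brown fat. Alb had 23.5, 10.6, 9.22 and 2.43 FPKM in epididymal libraries 1 to 4, which is low for a gene that led the liver libraries.

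Redox enzymes, which auranofin is known to act on through thioredoxin reductase, were compared in the vehicle state. Of 30 tested (32 listed), 12 were higher and 6 lower (median 0.16, and -0.65 on the TPM scale). Of the mitochondrial members, Prdx3 had 237 to 277 FPKM against 57.1 to 66.2 FPKM (log2 difference 2.07, adjusted p = 5.1e-06), Sod2 65.3 to 84.9 FPKM against 13.2 to 17.9 FPKM (log2 difference 2.18, adjusted p = 8.4e-06), Txn2 56.2 to 70.9 FPKM against 17.9 to 20.1 FPKM (log2 difference 1.72, adjusted p = 9.2e-06) and Txnrd2, the mitochondrial thioredoxin reductase, 19.7 to 26.3 FPKM against 3.08 to 5.94 FPKM (log2 difference 2.18, adjusted p = 2.4e-05). Cytosolic Txnrd1 did not pass, at 12.9 to 16.1 FPKM against 10.4 to 15.7 FPKM (adjusted p = 0.25); it was lower on the TPM scale (log2 difference -0.57, adjusted p = 0.014) and higher without epididymal libraries 1 and 2 (log2 difference 0.40, adjusted p = 0.019). Gpx7 and Prdx4 of the endoplasmic reticulum were lower (log2 differences -1.25 and -1.41). Of 17 tested uncoupling proteins and mitochondrial carriers, 12 were higher and 4 lower (median 1.28), and 9 and 5 on the TPM scale (median 0.47). Of the 14 that reached 0.5 FPKM in both depots, 10 were higher and 3 lower. Slc25a42, which imports coenzyme A, had 35.4 to 67.0 FPKM against 0.649 to 4.90 FPKM (log2 difference 3.79, adjusted p = 6.7e-05), and Pank1, which starts coenzyme A synthesis, 48.6 to 79.6 FPKM against 0.801 to 1.55 FPKM (log2 difference 4.93, adjusted p = 4.7e-07). Coq8a, a kinase-like protein of coenzyme Q synthesis, had 153 to 230.5 FPKM against 2.68 to 5.35 FPKM (log2 difference 5.34, adjusted p = 7.0e-07). Slc25a13, an aspartate and glutamate carrier, was lower, at 0.0592 to 0.243 FPKM against 1.62 to 5.02 FPKM (log2 difference -1.74, adjusted p = 0.00036). The rest of the 10 largest differences on the epididymal side were Cyp2e1, a cytochrome P450, with 2.36, 2.43, 1.49 and 2.60 FPKM in brown libraries 1 to 4 and 49.4, 71.0, 182 and 168 FPKM in epididymal libraries 1 to 4 (log2 difference -5.01, SE 0.40, adjusted p = 1.7e-05), Mest, an imprinted gene of growing adipocytes, at 1.71 to 4.27 FPKM against 52.3 to 114 FPKM (log2 difference -4.66, adjusted p = 5.1e-06), and Oxtr, the oxytocin receptor, at 0.0594 to 0.686 FPKM against 20.3 to 46.4 FPKM (log2 difference -4.54, adjusted p = 3.5e-06). All 3 were also high in inguinal fat, at 240.1 ± 111 FPKM, 161 ± 31.0 FPKM and 55.1 ± 19.3 FPKM.

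The same comparison in the auranofin libraries, which share no sample with the vehicle ones, called 3453 genes higher and 3866 lower (53.2% of the 13755). Of the 6556 vehicle calls, 5547 (84.6%) were called in the same direction there, which is 75.8% of the auranofin calls. Of the 2980 vehicle calls of 2-fold or more, 2832 (95.0%) were. Ucp1 differed by 11.37, Adgre1 by -3.87, Lep by -3.60 and Cpt1a by -2.03 on the log2 scale in those libraries. Adrb3 differed by 0.94 there, against 2.83 in vehicle. Among the lists, macrophages were 20 of 20 lower again (median -2.87) and complex I 36 of 36 higher (median 2.27). Thbs1 turned from 1.26 in vehicle to -1.63 there, where it was not called (adjusted p = 0.053). Slc6a6 and Pvr were called in opposite directions. Slc6a6, the taurine transporter, had 15.6 ± 0.180 FPKM against 21.4 ± 3.24 FPKM in vehicle (SD, n = 4; log2 difference -0.42) and 18.3 ± 1.86 FPKM against 12.5 ± 3.18 FPKM in auranofin libraries (log2 difference 0.54). Pvr, a nectin-like adhesion receptor, had 7.19 ± 0.287 FPKM against 5.05 ± 0.478 FPKM in vehicle (log2 difference 0.44) and 3.90 ± 0.516 FPKM against 5.73 ± 0.598 FPKM in auranofin libraries (log2 difference -0.46). The vehicle call of Slc6a6 was lost without any 1 brown library (adjusted p = 0.051 to 0.061), and on the TPM scale Pvr differed by -0.29, adjusted p = 0.06 in vehicle. The difference between the drug arms was not tested here.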

How the data were processed

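RNA was measured by sequencing of non-stranded libraries from whole fat depots. Per the submitters' processing notes the build was mm10 and the tools included featureCounts 1.5.0-p3, STAR 2.6.1d, CASAVA and DESeq2 1.20.0, whose roles and settings are not given in the sources used here. The deposited table holds FPKM per gene as the authors computed it. Multiplied by gene length and the size set for each library, each of the 8 libraries' values came within 0.1 of a whole read (100%). This gave the reads in genes quoted as depth. These rebuilt reads were used for voom and for bounds of 3 reads, which cover counting error only. Groups were taken from the labels. The 13755 genes with a mean of 0.5 FPKM or more were tested on log2(FPKM + 1) with limma 3.58.1 in R 4.3.3 (intensity trend). Brown was tested against epididymal fat in vehicle libraries alone, with Benjamini-Hochberg adjustment and a threshold of 0.05. Adjusted p-values of genes are from this test, or from its rerun in the setting or libraries named beside them. The script was tested on simulated data.

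The genes compared and the 39 gene lists were chosen with earlier results of these data known. Named genes were in each direction the 10 called protein-coding genes that differed most, without overlap and with a mean of 5 FPKM or more in the higher depot, a fixed set of fat, macrophage and patterning genes, 15 pairs of related genes (1 of which could not be tested), and up to 3 members per list and direction with the smallest p. Some of these genes are not reported here. Other named members were chosen after their values were seen. Alternatives were another pseudocount, filters, scalings, voom, no trend, sample weights, a replicate block, all vehicle libraries in 1 fit, protein-coding genes alone and libraries left out. Brown library 2 alone, and leaving out brown library 4 with epididymal library 2, were added after seeing the data. Without strand, antisense and overlapping genes cannot be told apart, and genes with near-identical copies are uncertain. Sequences are from RefSeq.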

Additional observations from a re-analysis of the deposited data

Results flagged for a closer look

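In groups of 4, a library was singled out when its gap to the nearest of the others was over 0.829 of the group's range (Dixon). Of 440 groups of values looked at, 34 had such a library, and chance flags about 1 in 20. None of the following was given an explanation, and each value is set against the range of the other 3 libraries of its depot. Brown library 1 was high for Atp5b at 1986 FPKM against 1660.2 to 1701. Brown library 1 was low for Atp5g1 at 2.62 FPKM against 2.88 to 2.92. Brown library 2 was high for Alb at 0.809 FPKM against 0 to 0.0937, Cd74 at 192 FPKM against 113 to 118, Oxtr at 0.686 FPKM against 0.0594 to 0.156 and Sfrp5 at 3.79 FPKM against 1.58 to 1.72. Brown library 2 was also high for the MHC class II and complement list (mean log2 level) at 4.06 against 3.65 to 3.69. Brown library 3 was high for Acaa1b at 40.5 FPKM against 17.7 to 21.0 and Wt1 at 0.0236 FPKM against 0. Brown library 3 was low for Kdr at 15.6 FPKM against 19.4 to 19.6 and the collagens and matrix list (mean log2 level) at 3.27 against 3.48 to 3.51. Brown library 4 was high for the ratio of mitochondrial to nuclear subunit FPKM at 7.50 against 3.37 to 3.94. Brown library 4 was low for Plin1 at 323 FPKM against 357 to 359, Sod2 at 65.3 FPKM against 81.7 to 84.9 and Zfp423 at 2.74 FPKM against 3.62 to 3.73. Epididymal library 1 was high for Cxcl1 at 5.93 FPKM against 0.769 to 1.05 and Tnfrsf1b at 31.8 FPKM against 19.9 to 21.5. Epididymal library 1 was low for Acaca at 4.02 FPKM against 6.71 to 7.23, Acly at 34.1 FPKM against 45.7 to 47.8, Slc25a5 at 138 FPKM against 151 to 152 and Sod2 at 13.2 FPKM against 17.7 to 17.9. Epididymal library 1 was also low for Zfp423 at 5.26 FPKM against 9.28 to 9.94. Epididymal library 2 was high for Elovl5 at 33.8 FPKM against 22.6 to 23.3, Lpl at 1063 FPKM against 521 to 558, Nampt at 29.2 FPKM against 16.5 to 18.4 and Ubd at 203 FPKM against 143 to 148. Epididymal library 2 was also high for Upk1b at 6.65 FPKM against 3.73 to 4.03, the mitochondrial share of FPKM at 17.4% against 7.87 to 8.46, the ratio of mitochondrial to nuclear subunit FPKM at 11.9 against 3.55 to 4.77 and the mitochondrially encoded list (mean log2 level) at 9.34 against 8.07 to 8.18. Epididymal library 2 was low for Atp5g1 at 4.49 FPKM against 8.46 to 8.51, Gpx7 at 10.6 FPKM against 14.8 to 15.5 and Msln at 1.71 FPKM against 5.81 to 5.92. Epididymal library 3 was high for Ckmt2 at 0.0289 FPKM against 0. Pvr and Slc6a6 differed in opposite directions in the drug arms, with no overlap between depots in either arm: the log2 difference was 0.44 in vehicle and -0.46 in auranofin libraries for Pvr, and -0.42 and 0.54 for Slc6a6. This difference between the arms was not tested.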

How the results depend on the processing

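Counts of genes moved by over 1.5 times under 2 of the settings tried. On the TPM scale 1166 genes were higher and 8330 lower, and 732 and 4844 with a 2-fold difference. This setting multiplies every gene of a library by a common factor before 1 is added, so the log2 shift of low genes differs from that of high ones. With brown library 2 alone against the 4 epididymal libraries, 743 were higher and 513 lower, and 681 and 502 with a 2-fold difference, from 1 library in the brown group whose spread is assumed to be like the epididymal one. Leaving out 1 library gave 2557 to 3259 higher and 2915 to 3725 lower genes, 1225 to 1471 and 1536 to 1708 with a 2-fold difference, 4905 to 5908 calls shared with the auranofin libraries and 12 to 13 pairs without overlap. Of the 177 tested genes named, 157 kept their direction and their side of the threshold without any 1 library. Whether equal replicate numbers mark the same animal is not known. Same-numbered libraries correlated in their deviations at -0.035, -0.085, 0.099 and -0.22. These values cannot decide it, since the deviations also hold differences in tissue makeup between libraries. A fit with the replicate number as a block gave 2696 higher and 3071 lower genes. That block ended the calls of 5 named genes and made 1. Signs of named log2 differences turned as follows, and the cause was not tested. On the TPM scale the values were Acaa1a -0.26, Atp2a2 -0.12, Atp5g3 -0.14, Cfd -0.81, Cox4i2 -0.15, Cox6a2 -0.44, Fabp4 -0.46, Nrf1 -0.51, Pcx -0.32, Pecam1 -0.65, Plin2 -0.098, Pvr -0.29, Srebf1 -0.29, Tnc -0.090 and Txnrd1 -0.57. After quantile normalisation they were Cfd -0.59 and Fabp4 -0.35, with voom Cox6a2 -0.036, and with sample weights Cfd -0.97, Cox6a2 -0.29 and Pcx -0.094. Without epididymal libraries 1 and 2 they were Cfd -1.19, Pcx -0.19 and Srebf1 -0.073, and without brown library 4 and epididymal library 2 Cfd -0.35 and Cox6a2 -0.42. With brown library 2 alone they were Acta1 -1.84, Atp2a1 -0.071, Ckmt2 -0.010, Cox6a2 -1.16 and Tnf 0.078. Leaving out 1 library at a time, ranges were Acaa1b -0.41 to 0.22, Cfd -0.41 to 0.45, Cox6a2 -0.30 to 0.86 and Pecam1 -0.068 to 0.36. Depth limits genes under about 3 reads per library, which are given as bounds or as listed at 0.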
